A study of Mus musculus with 2 samples.

Results

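Granzyme-high cytotoxic lymphocytes were described here in mouse skin wounds, as single cells of 2 droplet libraries. A cell belonged to this group when it held at least 500 detected genes, at most 6% mitochondrial UMIs (unique molecular identifiers, 1 per captured RNA molecule), at least 5 UMIs of *Gzma*, *Gzmb* and *Gzmc* together and at least 2 UMIs of *Nkg7*. It also had to lack *Csf1r* and to hold under 0.5% of its UMIs in *Col1a1* and *Col3a1* and under 0.5% in *Krt5* and *Krt14*. The rule found 155 cells among 15514 cells that passed the filter on genes and mitochondrial UMIs, of 23089 barcodes in all. The levels of these rule genes therefore chose the cells and are given as a description.

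The 2 libraries came from back skin wounds of male C57BL/6 mice, 7 to 9 weeks old, collected 5 days after wounding. By the deposited labels both groups carried the *Mrc1-DTR* transgene, in which the *Mrc1* promoter drives the diphtheria toxin receptor; 1 group received PBS and the other diphtheria toxin (DTX) by intraperitoneal injection, repeated through the healing period. The study's methods instead describe the control animals as wild type given the toxin, a difference that was not settled here, and the labels were followed. The 3 mice of a group were pooled into 1 library, live 7AAD-negative cells were sorted without selection for a lineage, and no replicate library was analysed here. The study's text also assigns the barcode totals of the libraries to the groups the other way round from the labels, while it describes the cell makeup of the groups in the labels' order. In the library labelled DTX, 5198 of 7188 filtered cells had a UMI of the leukocyte gene *Ptprc*, 498 were collagen-rich fibroblasts and 55 keratin-rich cells, against 2401 of 8326, 2748 and 750 in the library labelled PBS. *Mrc1* stood at 382 CPM in PBS and 419 CPM in DTX within cells with UMIs of the macrophage receptor gene *Csf1r*, of which the libraries held 1096 and 3310, and its level over all filtered cells (65.5 CPM and 267 CPM) moves with that number. PBS and DTX below stand for the libraries labelled so, and every direction between them rests on these labels. All comparisons are between 2 libraries, without a test, and each interval covers counting error only.

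Cytotoxic lymphocytes kill target cells by releasing granules that hold perforin, which opens the membrane, and granzymes, the serine proteases that enter and start cell death. Natural killer (NK) cells do so without a rearranged antigen receptor. T cells carry the CD3 chains of the T cell receptor complex, with either alpha beta or gamma delta receptor chains. In mouse skin, gamma delta T cells are abundant and are known for producing growth factors after injury.

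The 3 granzymes of the rule lie at 2 loci. *Gzma*, a tryptase, lies on chromosome 13 (113093825 to 113100981, minus strand, GRCm38), whereas *Gzmb* (56258838 to 56262260) and *Gzmc* (56231441 to 56234656) lie close together on the minus strand of chromosome 14. The 200 bases before the RefSeq start of each gene (GRCm38.p6, minus strand) are printed because *Gzma* and *Gzmc* were mostly found in different members below. The capitals mark matches to 3 motifs.
*Gzma* chr13:113100982-113101181: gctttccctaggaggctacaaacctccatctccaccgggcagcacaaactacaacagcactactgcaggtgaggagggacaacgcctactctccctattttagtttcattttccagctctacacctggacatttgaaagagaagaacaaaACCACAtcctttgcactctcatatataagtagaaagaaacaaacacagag
*Gzmb* chr14:56262335-56262534: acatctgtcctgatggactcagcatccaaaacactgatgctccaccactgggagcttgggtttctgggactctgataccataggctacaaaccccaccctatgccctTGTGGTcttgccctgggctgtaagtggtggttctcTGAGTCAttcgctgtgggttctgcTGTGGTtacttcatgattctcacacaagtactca
*Gzmc* chr14:56234658-56234857: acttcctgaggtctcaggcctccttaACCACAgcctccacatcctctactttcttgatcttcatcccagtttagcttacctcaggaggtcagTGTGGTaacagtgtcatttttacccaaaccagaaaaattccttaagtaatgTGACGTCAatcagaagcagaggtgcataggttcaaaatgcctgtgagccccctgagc
Searched on both strands were RUNX (TGTGGT), AP-1 (TGANTCA), CRE (TGACGTCA), T-box (GGTGTG), STAT (TTCNNNGAA) and ETS (ACAGGAA) letters. A RUNX match stood in all 3 windows, 1 in *Gzma* and 2 each in *Gzmb* and *Gzmc*, where 11.2% of 32851 RefSeq promoter windows of this length hold one. *Gzmb* also held an AP-1 match (5.48% of promoters) and *Gzmc* a CRE match (1.47%), and the T-box, STAT and ETS letters were in none of the 3. These matches describe letters only, and no binding was measured.

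The PBS library contributed 89 members among 8326 filtered cells and the DTX library 66 among 7188, which is 1.07% (95% Clopper-Pearson interval 0.859% to 1.31%) and 0.918% (0.711% to 1.17%). The 2 intervals overlap. With cells thinned to 2000 UMIs before the rule, members were 49 of 7827 cells in PBS and 42 of 6753 in DTX. These shares were closer together. The filter in the study's methods also has a ceiling on detected genes, which was not applied here. With cells above 2000 genes left out the intervals did not overlap, as 19 of 2522 cells in PBS (0.753%, 0.454% to 1.17%) and 2 of 2642 in DTX (0.0757%, 0.00917% to 0.273%) were then members. Above this limit lay 70 of the 89 and 64 of the 66 members. Over filtered cells with a UMI of *Ptprc*, the CD45 gene of all leukocytes, the shares were 3.62% (2.91% to 4.45%) and 1.27% (0.983% to 1.61%), so the order of the libraries was the same but the distance was larger. This denominator differed in itself: 2401 cells in PBS and 5198 in DTX had a *Ptprc* UMI, and 1096 and 3310 cells were *Csf1r* cells, with at least 2 UMIs of this macrophage receptor gene and few of granzymes, collagens or keratins. Together with granzyme-low Cd3 cells, which had at least 2 UMIs of the Cd3 genes and under 5 of the 3 granzymes, members were 89 of 180 in PBS (49.4%, 41.9% to 57.0%) and 66 of 127 in DTX (52.0%, 42.9% to 60.9%).

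Members were sequenced to a median of 7366 UMIs in PBS (2031 to 38408) and 10703 in DTX (4798 to 25936), whereas all filtered cells had medians of 9822.5 and 7350. Depth therefore moved with the library, and in opposite directions in members and in all cells; the levels below are given as CPM, UMIs summed over the members of a library and scaled to the same total in each library. Across the 2 libraries 37 barcodes were shared, and no member carried one. Cells at the edge of the rule were few. The members with the fewest granzyme UMIs, 5 to 9, were 7 in PBS and 8 in DTX, with a median *Il2rb* of 9 and 14 UMIs, while 10 and 2 cells just outside, with 3 or 4 granzyme UMIs, had medians of 11.5 and 9. Cells with enough granzyme UMIs but no *Nkg7* were more frequent, 31 in PBS and 26 in DTX.

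The markers given with the label were present. *Il2rb*, the beta chain of the IL-2 and IL-15 receptors and the only one of the 5 that the rule did not use, had a UMI in 96.6% of PBS members and in 100% of DTX members, with a level of 1320 CPM and 1352 CPM against 13.8 CPM and 14.1 CPM in all other filtered cells. It was not limited to members, since granzyme-low Cd3 cells held *Il2rb* at 881 CPM and 917 CPM and *Nkg7* at 754 CPM and 645 CPM, and their *Trbc1* (900 CPM and 857 CPM) and *Trbc2* (723 CPM and 617 CPM) were above the members' levels of 682 CPM and 774 CPM and of 528 CPM and 412 CPM. The 15 genes highest in members over the other cells were *Gzma*, *Gzmc*, *Nkg7*, *Il2rb*, *Ctsw*, *Xcl1*, *Gzmb*, *Ms4a4b*, *AW112010*, *Sh2d2a*, *Trbc1*, *Prf1*, *Klre1*, *Serpinb6b* and *Trbc2*. Of these, *Prf1* encodes perforin, *Ctsw* a cathepsin of cytotoxic cells, *Xcl1* a chemokine for dendritic cells and *Klre1* an NK receptor. *Prf1* stood at 260.4 CPM and 327.7 CPM in members and at 0.833 CPM and 0.762 CPM in other cells. Some genes that define other lineages were near 0, while RNA of keratinocytes, macrophages and fibroblasts was present and is given below. *Cd79a*, *Ms4a1*, *Xcr1*, *Flt3* and *Retnlg* had no UMI, *Mrc1* had 0 and 2 UMIs and *Adgre1* 1 and 2.

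**Figure D1:**
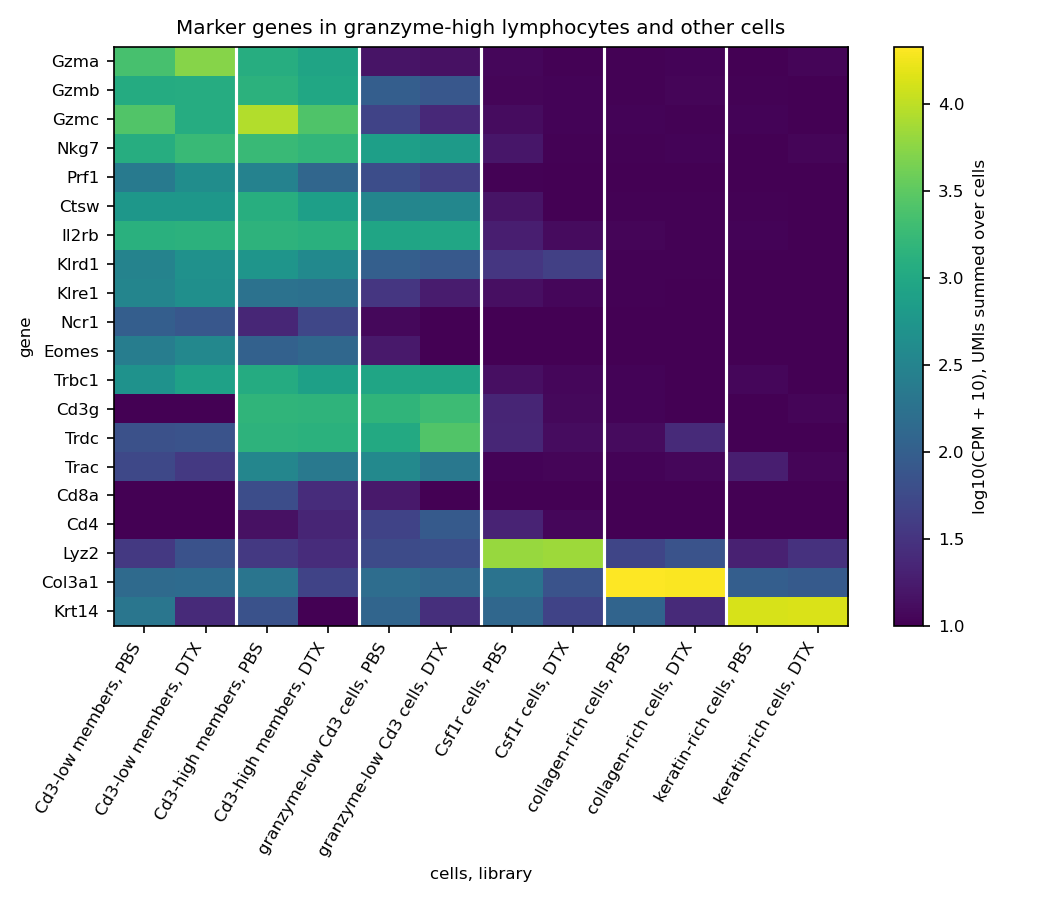
Marker genes (rows) in the Cd3-low and Cd3-high members and in 4 other kinds of cells (columns, PBS and DTX libraries side by side); the colour is log10(CPM + 10) of UMIs summed over cells. Granzyme genes are bright in the members, *Cd3g* and *Trdc* in the Cd3-high members and the granzyme-low Cd3 cells, and *Cd8a* reaches at most 51.3 CPM in any column; the cell kinds were picked on some of these genes.

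A few members went against the label. In PBS, 3 cells held 9, 79 and 148 UMIs of *Mcpt8*, a basophil protease, with 1, 6 and 26 UMIs of the mast cell and basophil gene *Cpa3*. These 3 cells had no UMI of *Il2rb*, *Trbc1* or *Trbc2*, and between 16 and 82 of *Gzmb*. In each library 1 further cell was rich in the MHC class II chaperone gene *Cd74*, with 468 UMIs in PBS and 216 in DTX, beside 158 and 99 of *H2-Aa*; these cells also held 95 and 149 *Gzma* UMIs. Both had many UMIs, 38408 and 22254. The doublet caller Scrublet marked 2 PBS members among 382 marked cells and, with the highest scores taken since its own threshold marked none, 3 DTX members among 670. The *Mcpt8* cells held 118 of the 901 *Gzmb* UMIs of PBS members. Several results below are also given without these 5 cells.

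The cells fell into a group with and a group without UMIs of the CD3 chains. The sum of *Cd3d*, *Cd3e* and *Cd3g*, the CD3 delta, epsilon and gamma chains, reached at least 2 UMIs in 31 of 89 PBS members (34.8%, 25.04% to 45.7%) and in 23 of 66 DTX members (34.8%, 23.5% to 47.6%). The same count was met by 0.365% of *Csf1r* cells in PBS and 0.181% in DTX, at median depths of 6473.5 and 7658 UMIs, so the share in members was above that in *Csf1r* cells. The source of the Cd3 UMIs in *Csf1r* cells was not tested. Most members stood at an extreme, with 55 and 39 cells at 0 and 23 and 16 cells at 10 or more. With every member thinned to 2000 UMIs the shares were 28.1% (25 of 89) and 21.2% (14 of 66), and with cells thinned before the rule was applied they were 28.6% in PBS (16.6% to 43.3%) and 11.9% in DTX (3.98% to 25.6%). The shares of the libraries were thus not equal after thinning, with intervals that overlap. Below, members with at least 2 UMIs are called Cd3-high and those with none Cd3-low, and the 3 and 4 cells with 1 UMI are left out of the split.

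The Cd3-high members carried receptor genes of both T cell lineages. *Trdc*, the constant gene of the delta chain, reached 5 UMIs in 12 of 31 Cd3-high cells in PBS and 11 of 23 in DTX, against 1 of 55 and 1 of 39 Cd3-low cells. *Trac*, the constant gene of the alpha chain, reached 2 UMIs in 11 and 7 Cd3-high cells. Among Cd3-low cells 4 of 55 and 2 of 39 reached this count of *Trac*. In Cd3-high cells both genes were above these counts together in 0 and 1. The remaining 8 and 6 Cd3-high cells had neither. *Tcrg-C1*, a gamma chain constant gene, had 41 and 70 UMIs in Cd3-high members and none in Cd3-low members, at least 29.0-fold and 45.0-fold more (against 3 counts in the Cd3-low members). Of the 50-base words in its 3′ end 31.7% occur in other genes, and 29.0% occur in *Tcrg-C2*, another gamma chain constant gene. The co-receptor genes of alpha beta T cells were rare, as *Cd8a* and *Cd8b1* had a UMI in 1 member of each library and *Cd4* in 1.12% and 4.55% of members.

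*Gzma* and *Gzmc* were divided between members, while *Gzmb* was held by cells of both kinds. At least 5 UMIs of *Gzma* were found in 49 of 89 PBS members and 42 of 66 DTX members, of *Gzmb* in 45 and 41, and of *Gzmc* in 36 and 18. *Gzma* and *Gzmc* reached 5 UMIs together in only 4 PBS cells and 6 DTX cells, while 45 and 36 cells had *Gzma* without *Gzmc* and 32 and 12 had *Gzmc* without *Gzma*. Because each cell was chosen for a sum of at least 5 over the 3 genes, a cell low in 1 of them had to hold another, and part of this division is set by the rule.

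**Figure D2:**
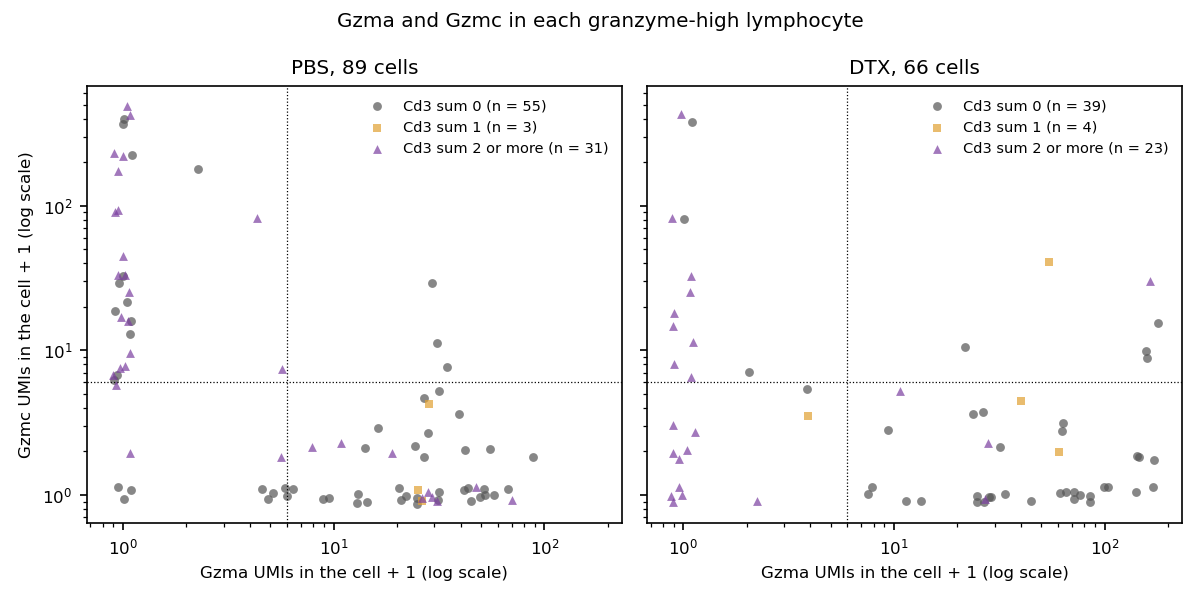
*Gzma* (horizontal) and *Gzmc* (vertical) UMIs in each member, with 1 added, on log axes, in PBS (left, 89 cells) and DTX (right, 66 cells); points are jittered, the dotted lines separate cells with 5 or more UMIs, and colours give the sum of the 3 Cd3 genes. Only 4 PBS and 6 DTX cells lie in the upper right, and the Cd3-high cells (triangles) crowd along the left edge.

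Across all members *Gzma* ran from 0 to 95 UMIs per cell in PBS (median 8) and from 0 to 182 in DTX (median 22.5). *Gzmb* ran from 0 to 82 (median 5) and from 0 to 58 (median 7). *Gzmc* ran from 0 to 541 and from 0 to 402, with a median of 1 in both libraries. *Gzmc* was thus concentrated in few cells: the 5 highest cells held 57.6% of its UMIs in PBS and 81.1% in DTX, and a single DTX cell held 33.3%.

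The use of the granzymes followed the Cd3 split in both libraries. *Gzma* reached 5 UMIs in 37 of 55 Cd3-low cells in PBS and 35 of 39 in DTX, but in 9 of 31 and 4 of 23 Cd3-high cells. *Gzmc* went the other way, with 20 of 31 and 10 of 23 Cd3-high cells against 16 of 55 and 7 of 39 Cd3-low cells. *Gzmb* reached it in 11 of 31 and 13 of 23 Cd3-high cells and in 33 of 55 and 25 of 39 Cd3-low cells. Within the Cd3-high cells with 5 *Trdc* UMIs, *Gzma* reached 5 UMIs in 1 of 12 cells in PBS and 0 of 11 in DTX, and *Gzmc* in 10 and 7. Of those with 2 *Trac* UMIs and under 5 of *Trdc*, 3 of 11 and 0 of 6 reached it for *Gzma* and 7 and 0 for *Gzmc*. In the cells with neither, 5 of 8 and 4 of 6 did for *Gzma* and 3 and 3 for *Gzmc*. The 55 Cd3-low cells of PBS include the 3 *Mcpt8* cells, which had no *Gzma* UMI. The granzyme counts entered the choice of the cells, so these shares are a description.

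Across all genes, 4052 had at least 50 UMIs in the Cd3-high and Cd3-low members together. Of these, 93 (2.3%) were at least 2-fold higher in Cd3-high members in both libraries and 40 (0.987%) at least 2-fold lower, on a log2 scale after adding 10 CPM to each level. No test applies, since the cells of 1 library are not replicates. Besides the Cd3 genes that made the split, the highest were *Trat1*, an adaptor of the T cell receptor, *Trdc* and *Tcrg-C1*, *Avil*, *Grap2*, *Itgae*, *Col27a1*, *Map1b*, *Fermt2* and *Tsc22d1*. *Itgae*, the CD103 integrin chain that binds epithelial E-cadherin, stood at 231 CPM in Cd3-high and 20.1 CPM in Cd3-low members of PBS (log2 ratio 3.0), and had 28 and 0 UMIs in DTX. *Areg*, the EGF receptor ligand amphiregulin, stood at 1099 CPM against 247 CPM in PBS (2.11) and at 1006 CPM against 97.9 CPM in DTX (3.24). *Avil* had 37 and 23 UMIs in Cd3-high and none in Cd3-low members, at least 26.2-fold and 14.8-fold more against 3 counts. *Cxcr6*, a chemokine receptor of skin-resident lymphocytes, had log2 ratios of 1.23 and 3.51, *Cd7* of 1.40 and 1.81, and the G protein regulator *Rgs2* of 1.18 and 1.87. Several of these genes were not limited to members. In granzyme-low Cd3 cells *Areg* stood at 1362 CPM in PBS and 1534 CPM in DTX and *Itgae* at 130 CPM and 159 CPM. *Avil* stood there at 87.0 CPM and 131 CPM, *Cxcr6* at 289 CPM and 869 CPM and *Cd7* at 574 CPM and 641 CPM.

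On the Cd3-low side the ranking first named *Il1b*, *Klra4*, *Ifitm1*, *H2-Aa*, *Plac8*, *H2-Ab1*, *Csf2rb*, *Sdc4*, *Cryab* and *Ifitm3*. Several of these came from the *Mcpt8* and *Cd74* cells described above: *Il1b* had log2 ratios of Cd3-high to Cd3-low of 0.34 in PBS and -1.01 in DTX without those 5 cells, *Ifitm1* -0.60 and 0.63, *H2-Aa* -0.87 and -0.16, *H2-Ab1* -1.16 and 0.05 and *Ifitm3* -0.81 and -0.05. *Csf2rb* stood at -0.76 and -0.29 without them, and 1 PBS cell held 98.2% of the *Cryab* UMIs. By contrast *Klra4*, a Ly49 receptor of NK cells, had 0 and 44 UMIs in the Cd3-high and Cd3-low members of PBS and 12 and 182 in DTX, in 9 and 17 Cd3-low cells, and was at least 6.90-fold lower in Cd3-high members of PBS against 3 counts. *Plac8* stood at 42.8 CPM against 598 CPM in PBS and at 127 CPM against 709 CPM in DTX, and its log2 ratios without the 5 cells were -3.41 and -2.35.

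Several NK genes of the lists were also lower in Cd3-high members. *Eomes*, a T-box factor of NK cells, had log2 ratios of Cd3-high to Cd3-low of -1.23 in PBS and -1.45 in DTX, the NK receptor gene *Klri2* of -2.29 (2 and 40 UMIs, counting interval -6.33 to -1.29) and -1.57, and *Irf8*, an interferon regulatory factor, of -1.63 and -2.12. The interferon gamma gene *Ifng* stood at 128 CPM against 316 CPM in PBS (-1.24) and at 53.4 CPM against 149 CPM in DTX (-1.33). *Ncr1*, which encodes NKp46, had 3 and 44 UMIs in PBS and 10 and 33 in DTX. In DTX this was 41.1 CPM against 70.2 CPM, short of 2-fold, and the top cell held 50% of the Cd3-high UMIs. *Klre1* had ratios of -0.90 and -1.43. Other NK receptor genes were not lower in both libraries. *Klrd1* stood at 539 CPM against 302 CPM in PBS and at 374 CPM against 468 CPM in DTX. *Klrk1* stood at 488 CPM against 372 CPM and at 296 CPM against 317 CPM. *Klrc1* stood at 346 CPM against 398 CPM and at 312 CPM against 209 CPM. Of the 16 compared genes on the list of NK receptors, 3 were at least 2-fold lower in Cd3-high members in both libraries and none higher, where the background share is 0.987%; of the 7 compared tissue-resident genes, 4 were higher (background 2.3%) and none lower. Of the 4 compared inhibitory receptors 3 were higher, *Havcr2* with ratios of 1.61 and 2.32, *Cd160* with 1.45 and 2.18 and *Cd96* with 1.79 and 1.46. *Trbc1*, a beta chain constant gene, had a UMI in 50 of 55 and 39 of 39 Cd3-low cells, so a beta chain UMI was present in most cells without Cd3. In the 3′ end of *Trbc1*, 39.5% of the 50-base words are shared with *Trbc2*, the other beta chain constant gene.

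**Figure D3:**
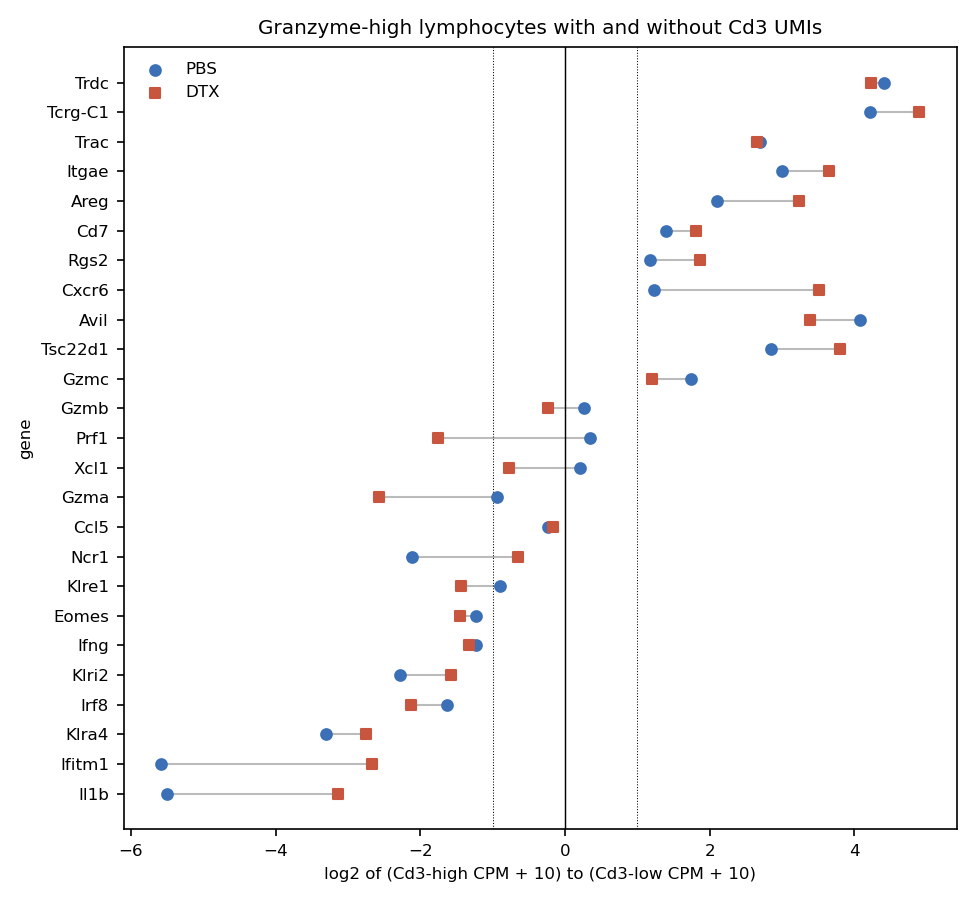
Log2 ratio of Cd3-high to Cd3-low members for 25 genes (vertical), PBS as circles and DTX as squares, after adding 10 CPM; grey lines join the 2 libraries and dotted lines mark 2-fold. *Trdc* to *Gzmc* lie right of 0 and *Gzma* and *Eomes* left of it in both libraries; *Tcrg-C1* and *Avil* had no UMI in Cd3-low members, so their place depends on the added CPM, and *Il1b* and *Ifitm1* rest on the *Mcpt8* and *Cd74* cells.

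Between the libraries, 4178 genes had at least 50 UMIs in members of PBS and DTX together and were compared, with a median log2 ratio of DTX to PBS of 0.04. Of these, 27 (0.646%) were at least 2-fold higher in DTX members and 86 (2.06%) at least 2-fold lower, a description of the 2 libraries by size alone. Without the members rich in *Mcpt8* or *Cd74*, 30 were higher and 54 lower. Without genes of the macrophage, fibroblast and keratinocyte lists and the members with over 1% of their UMIs in them, 21 were higher and 41 lower. The count of lower genes thus rested in part on a few cells.

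Of the rule's granzymes, *Gzma* was higher and *Gzmc* lower in DTX members. *Gzma* had 1499 UMIs in PBS and 2851 in DTX, 2002 CPM and 3752 CPM, a log2 ratio of DTX to PBS of 0.90 (counting interval 0.82 to 1.00). With at most 2000 genes per cell, which left 19 and 2 members, the *Gzma* ratio turned to -0.59. *Gzmc* had 3354 and 1209 UMIs, 4480 CPM and 1591 CPM, a ratio of -1.49 that was -1.81 without the top cell of each library, -0.79 with up to 10% mitochondrial UMIs allowed and -0.50 with at most 2000 genes per cell, and its counting interval does not cover the spread between cells. *Gzmb* had 901 and 827 UMIs and a ratio of -0.14 (-0.28 to -0.01), which was -0.04 without the *Mcpt8* and *Cd74* cells. The other granzymes were low: *Gzmf* had 1 and 37 UMIs, *Gzmk* 1 and 13, *Gzme* 20 and 17 and *Gzmm* 8 and 10, and *Gzmd*, *Gzmg* and *Gzmn* had none. *Prf1* had 195 and 249 UMIs (0.32) and *Nkg7* 1029 and 1293 (0.31).

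Of 15 compared genes of the lytic granule and its secretion, 5 were higher and 10 lower in DTX members (median log2 ratio -0.04), and 1 was at least 2-fold lower, beside 55.6% of all compared genes above 0 and a background of 2.06%. That was *Cd63*, a granule membrane protein, with 75 and 18 UMIs (-1.71). *Ctsc*, the cathepsin that activates granzymes, had 99 and 59 UMIs (-0.70), and *Serpinb6b*, a protease inhibitor that protects the killing cell, 773 and 601 (-0.38). *Srgn*, the proteoglycan that packs the granule, had 1696 and 1522 (-0.18). Of 5 death ligand genes 2 could be compared and both were higher without reaching 2-fold (median 0.15), *Fasl* with 29 and 34 UMIs (0.17) and *Ltb* with 46 and 52 (0.13).

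In the Cd3-low members *Gzma* was higher in DTX. There it stood at 2290 CPM in PBS and 5246 CPM in DTX, a log2 ratio of 1.19 (1.09 to 1.30) that was 1.21 without the top cells. Cells with no *Gzma* UMI were 14 of 55 and 2 of 39. The 14 include the 3 *Mcpt8* cells, and these counts were not taken at equal depth, as Cd3-low members had medians of 7661 and 11569 UMIs. Without the *Mcpt8* and *Cd74* cells *Gzma* stood at 2428 CPM and 5174 CPM. In Cd3-high members it stood at 1185 CPM and 875 CPM (-0.43, -0.70 to -0.17), and 1 cell held 70.9% of the DTX UMIs. Without the top cells the ratio there was -1.74. *Prf1* likewise stood at 227 CPM and 411 CPM in Cd3-low members (0.83, 0.51 to 1.20) and at 291 CPM and 115 CPM in Cd3-high members (-1.27, -2.03 to -0.68). Opposite differences with both counting intervals on 1 side of 0 were met by 58 of the 4052 genes (1.43%), and the difference between the subsets was not tested. *Rora*, a nuclear receptor of innate lymphocytes and T cells, went the other way, from 453 CPM to 181 CPM in Cd3-low members (-1.28) and from 167 CPM to 390 CPM in Cd3-high members (1.18).

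Among cytokine and chemokine genes 7 of 8 compared were lower in DTX members and 3 were at least 2-fold lower (median log2 ratio -0.79, beside 0.04 over all genes and a background of 2.06%). *Ccl3* and *Ccl4*, chemokines for monocytes and lymphocytes, had 283 and 196 UMIs in PBS and 27 and 22 in DTX, ratios of -3.09 and -2.80. Much of this lay in the *Mcpt8* and *Cd74* cells, without which the ratios were -0.75 and -1.52. *Ccl5* stood at 1573 CPM and 941 CPM (-0.74) and was found in 73.0% and 62.1% of members. *Xcl1* stood at 971 CPM and 536 CPM (-0.85) and was found in 79.8% and 80.3%. Such shares of cells with a UMI were not taken at equal depth, as the members had medians of 7366 UMIs in PBS and 10703 in DTX. With at most 2000 genes per cell, which left few members, the ratio was -4.08 for *Ccl5* and -0.23 for *Xcl1*. *Ifng* had 190 and 144 UMIs (-0.40), with a UMI in 57.3% of PBS and 37.9% of DTX members, and its ratio was -0.73 without the top cells. Of the DTX UMIs 61 lay in the 4 members with 1 Cd3 UMI, 46 of them in 1 cell, and the ratio was -1.13 in Cd3-high and -1.04 in Cd3-low members. *Tgfb1* was the 1 gene of the 8 that was higher, with 214 and 315 UMIs (0.52), and *Il17a*, *Il2*, *Il10* and *Il22* had at most 2 UMIs.

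The tissue-resident genes were lower in 5 of 7 cases (median -0.40), with 1 at least 2-fold lower beside a background of 2.06%. *Itgae* had 64 and 28 UMIs in all members (-1.03, but -0.54 with up to 10% mitochondrial UMIs allowed), *Cxcr6* 104 and 60 (-0.74) and the regulator *Rgs1* 1497 and 813 (-0.90, but 0.57 with at most 2000 genes per cell), while the early activation gene *Cd69* had 91 and 122 (0.37). Among trafficking receptors 5 of 9 were higher and 4 lower, none 2-fold (median 0.44); *Cxcr4*, a chemokine receptor, had 88 and 162 UMIs (0.81). Of the NK receptors 8 of 16 were higher and 8 lower (median 0.09), and 1 was at least 2-fold higher (background 0.646%). That was *Klra4*, with 52 UMIs in 10 PBS cells and 201 in 20 DTX cells (1.79, 1.48 to 2.40), and 1.94 without the top cells. *Klrb1c*, which encodes NK1.1, had 56 and 114 UMIs (0.92) and *Klri2* 42 and 83 (0.85), whereas *Klra9* had 102 and 59 (-0.74) and *Klrc1* 285 and 191 (-0.58).

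**Figure D4:**
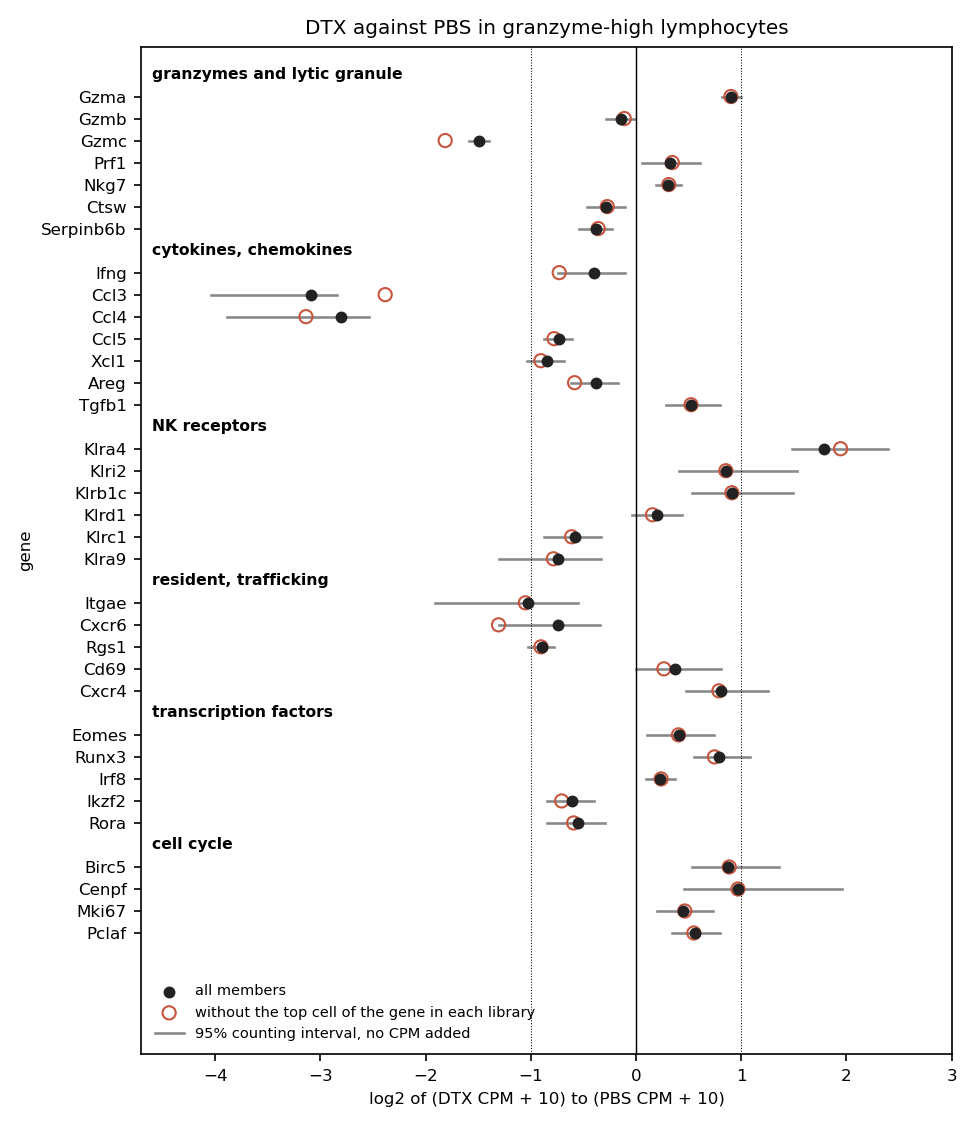
Log2 ratio of DTX to PBS in members (horizontal) for 34 genes in 6 groups; filled points use all members after adding 10 CPM, open circles leave out the cell with the most UMIs of the gene in each library, and grey lines are 95% counting intervals of the raw ratio. *Gzma* and *Klra4* lie right of 0 and *Gzmc*, *Xcl1* and *Rgs1* left of it with and without the top cells, while *Ccl3* moves from -3.09 to -2.38.

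Of 13 compared lymphocyte transcription factors none differed 2-fold (median 0.00). *Runx3*, a runt factor of cytotoxic and resident lymphocytes, had 182 and 325 UMIs (0.79, 0.55 to 1.09), in 78.7% and 93.9% of members, shares not taken at equal depth. *Ikzf2*, which encodes Helios, had 419 and 277 (-0.60), *Eomes* 147 and 200 (0.41), and *Id2*, which innate lymphocytes need, 801 and 807 (-0.01). *Tcf7*, which encodes TCF-1, had 158 and 163 (0.02). The T cell receptor and alpha beta T cell list had 6 of 12 genes higher and 6 lower (median -0.01) and the gamma delta list 1 of 2 higher, none 2-fold, with *Trdc* at 360 and 356 UMIs (-0.04). The *Trdc* ratio was 0.21 with up to 10% mitochondrial UMIs allowed and 2.49 with at most 2000 genes per cell, which left few members. Among the gamma delta variable genes *Trdv4* had 23 and 13 UMIs, 21 and 13 of them in Cd3-high members, whereas *Trdv1*, *Tcrg-V4*, *Tcrg-V5*, *Tcrg-V6* and *Trgv2* had at most 1 UMI in a library. The libraries capture the 3′ end of RNA, and how far reads reach the variable segments was not assessed. These low counts therefore do not show that the chains are absent. The cytokine receptors were close to level, with 6 of 9 higher and none 2-fold (median 0.03), among them *Il2rb* with 988 and 1027 UMIs (0.03) and *Il2rg* with 146 and 149 (0.01).

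All 19 compared cell cycle genes had a ratio above 0, where 55.6% of the 4178 compared genes did, none reached 2-fold, and the median was 0.28. By subset, 17 of the 19 were above 0 in Cd3-high members (median 0.70, beside 0.05 over all genes) and 13 in Cd3-low members (median 0.15, beside 0.03). *Ube2c* had ratios of 1.58 in Cd3-high and -0.62 in Cd3-low members, *Ccnb2* of 2.18 and -0.52 and *Top2a* of 1.13 and -0.11, and the difference between the subsets was not tested. *Mki67*, a gene of proliferating cells, had 200 and 280 UMIs (0.45), *Birc5* 75 and 146 (0.88) and *Cenpf* 23 and 53 (0.97). A *Mki67* UMI was found in 57.3% of PBS members (46.4% to 67.7%) and 65.2% of DTX members (52.4% to 76.5%). With cells thinned to 2000 UMIs the shares were 32.6% (23.0% to 43.3%) and 37.9% (26.2% to 50.7%), which overlap, beside 23.0% and 24.6% in granzyme-low Cd3 cells and 2.23% and 0.425% in *Csf1r* cells. The interferon-stimulated list had 5 of 7 genes higher and 1 at least 2-fold (background 0.646%, median 0.45): *Ly6a* had 111 and 241 UMIs (1.05), but 0.56 without the top cells. Over 11 settings the *Ly6a* ratio ran from 0.27 to 1.12 and passed 2-fold in only 4. Of 15 compared glycolysis and hypoxia genes 12 were higher and none 2-fold (median 0.15), and of 4 compared inhibitory receptors 1 was higher and 3 lower (median -0.41), none 2-fold. The immediate early and stress list had 10 of 15 genes higher and 2 at least 2-fold (background 0.646%, median 0.11), which were the heat shock genes *Hspa1a* and *Hspa1b* described next.

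The 10 highest ratios among all genes were those of *S100a9*, *Gpx3*, *Hspa1a*, *Pi16*, *Klra4*, *Ccl7*, *Hspa1b*, *Cxcl10*, *Spp1* and *Mest*. Of these *Gpx3*, *Pi16* and *Ccl7* each rested on 1 DTX cell, with 130 of 131, 49 of 49 and 92 of 103 UMIs in the top cell, and their ratios without the top cells were -1.47, -0.49 and -0.78. The neutrophil gene *S100a9* had 5 and 58 UMIs, 47 of them in 1 DTX cell. The heat shock gene *Hspa1a* had 26 and 166 UMIs in 10 cells of each library (2.35, and 2.23 without the top cells) and *Hspa1b* 43 and 145 (1.57). With up to 10% mitochondrial UMIs allowed these ratios were 1.30 and 0.62. *Cxcl10*, an interferon-induced chemokine, had 28 and 98 UMIs in 15 and 23 cells (1.55), and *Mest* 17 and 54 (1.31).

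The 10 lowest were *Mcpt8*, *Sprr1a*, *Serpinb2*, *Lgals7*, *Sbsn*, *Ly6d*, *Krt17*, *Krt16*, *Calm4* and *Lypd3*. *Mcpt8* had 236 UMIs in 3 PBS cells and 1 in DTX. *Serpinb2* stood at 7701 CPM and 6045 CPM in keratin-rich cells against 574 CPM and 974 CPM in fibroblasts, and the other 8 are genes of the epidermis. *Lgals7* had 520 UMIs in 56 of 89 PBS members and 23 in 18 of 66 DTX members (-4.13), and 1 PBS cell held 221 of them; without the top cells the ratio was -3.44.

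RNA of other cell types differed between the libraries in these cells. All 7 compared genes of the 10 on the keratinocyte list were at least 2-fold lower in DTX members, where the background is 2.06%, and the list summed to 2387 CPM in PBS and 187 CPM in DTX, led by *Lgals7* (694 CPM and 30.3 CPM). The same list was also lower in *Csf1r* cells, at 1544 CPM in PBS and 425 CPM in DTX, and the libraries held 750 and 55 keratin-rich cells. In PBS it was uneven among members, at 3376 CPM in Cd3-low and 436 CPM in Cd3-high cells, so ratios between these subsets in PBS carry it. A single Cd3-low cell held 634 of the list's 1787 UMIs in PBS. Without the top cell of each set the list stood at 1596 CPM in PBS and 181 CPM in DTX members, and at 2217 CPM in Cd3-low and 414 CPM in Cd3-high cells of PBS. The macrophage list (12 genes, *Csf1r* at 0 by the rule) summed to 1350 CPM and 555 CPM, led by *Cd74* at 747 CPM and 368 CPM. Of the *Cd74* UMIs, 1 cell held 468 of 559 in PBS and 1 cell 216 of 280 in DTX. Without the *Mcpt8* and *Cd74* cells the list summed to 709 CPM and 239 CPM, and *Cd74* in Cd3-low members went from 1077 CPM and 511 CPM to 105 CPM and 53.6 CPM. *Apoe* had 379 UMIs in PBS, 261 of them in 1 cell, and 35 in DTX. The fibroblast list summed to 629 CPM and 825 CPM, and to 599 CPM and 127 CPM without the top cell of each library, so its order turned. In Cd3-low members of DTX 1 cell held 94.4% of the *Dcn* UMIs, and the *Dcn* ratio of all members went from 1.01 to -1.81 without the top cells. The neutrophil list summed to 12.0 CPM and 101 CPM, led by *S100a9*, with *Retnlg* at 0. The mast cell list summed to 135 CPM and 68.4 CPM, led by *Kit*, which innate lymphocytes can also express, with 47 and 46 UMIs. The B cell list (80.1 CPM and 65.8 CPM, led by *Ighm*), the endothelial list (62.8 CPM and 96.1 CPM, led by *Pecam1*) and the dendritic list (13.4 CPM and 26.3 CPM, led by *Zbtb46*) were low, and the red cell list had 1 and 0 UMIs. The part of this RNA in the differences above was not tested; leaving out its genes and the members richest in them left *Gzma* at 0.86, *Gzmc* at -1.58, *Xcl1* at -0.87 and *Runx3* at 0.71.

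**Figure D5:**
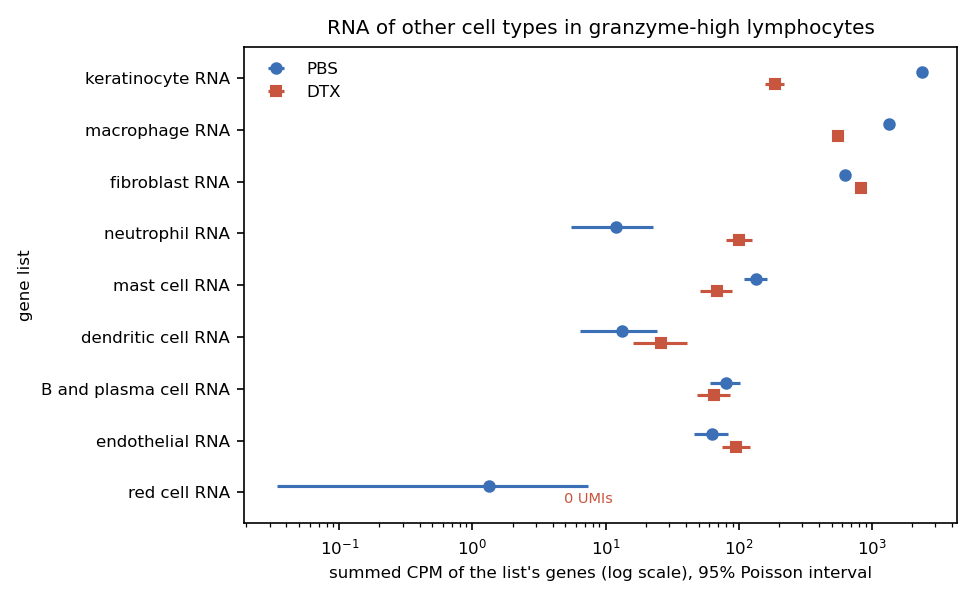
Summed CPM of the genes on 9 lists of other cell types (log axis) in the members of PBS (circles) and DTX (squares), with 95% Poisson intervals. The keratinocyte list stands at 2387 CPM in PBS and 187 CPM in DTX, the macrophage list at 1350 CPM and 555 CPM and the fibroblast list at 629 CPM and 825 CPM, where 1 DTX cell held 533 of the 627 UMIs.

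Some genes that differed library-wide also differed here. *Gm47283* had 110 UMIs in PBS members and 3 in DTX, a counting interval of the log2 ratio of -7.52 to -3.63, and *Mid1* 53 and 0. In *Csf1r* cells *Gm47283* stood at 135 CPM and 2.02 CPM and *Mid1* at 134 CPM and 1.77 CPM, so both genes were lower in other cells of the DTX library as well. Some genes named above also moved in other cells. *Spp1* had log2 ratios of 1.18 in *Csf1r* cells, 1.80 in granzyme-low Cd3 cells and 2.24 in fibroblasts, and *Tgfb1* of 0.98, 1.36 and 0.94. *S100a9* had 2.77, 3.13 and 0.15, and *Rgs1* -1.38, 0.14 and -0.39. In the same order *Ccl5* had -0.51, -1.17 and -0.41, *Cxcr4* 0.70, 1.37 and 0.07, and *Ikzf2* -0.28, -1.75 and -0.16. *Ifng* had 31 UMIs in PBS and 1 in DTX in granzyme-low Cd3 cells (-2.36). By contrast *Ccl3* and *Ccl4*, lower in DTX members, were higher in *Csf1r* cells of DTX (1.46 and 0.50).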

How the data were processed

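Cells of the PBS and DTX wounds were captured with the Chromium Single Cell 3′ v3 chemistry and 1 library per group was analysed. The deposited values are UMI counts per gene and barcode, made by the authors with Cell Ranger (6.1.1 per the labels and file headers, another release in the study's methods) against mm10, with barcodes already called as cells; how the technical repeats were joined is not given in the sources used here. The libraries labelled PBS and DTX held 12058 and 11031 barcodes with 105511870 and 81858751 UMIs in 31053 genes. The members and gene lists (27 lists, 307 genes) were chosen with earlier results of these data known.

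UMIs were summed over cells and scaled to CPM, and log2 ratios were taken after adding 10 CPM, for genes with at least 50 UMIs in the cells compared. The study's upper limit of 2000 genes per cell was not applied to the main values, since it removes most members, and was tried as an alternative. A difference of at least 2-fold was called by size; with 1 library per group no test or p-value applies. Intervals (95%) were Clopper-Pearson for shares, exact Poisson for CPM and exact conditional binomial for ratios without added CPM, so a ratio of a low gene can lie outside its interval. Named were the genes of the rule, list genes with at least 50 UMIs that led or opposed their list and those at or near 0, the 10 highest and 10 lowest DTX to PBS ratios, the 15 genes leading members over other cells, and the 10 highest in each direction of the Cd3 split. *Mcpt8* and *Cd74* cells, *Apoe* and genes given beside these were named after their values were seen. Doublets were kept in the main values and left out as an alternative. Promoter windows were taken from RefSeq for GRCm38.p6 and gene positions from GENCODE. The computation used Python 3.11.15, numpy 2.4.6, scipy 1.17.1, pandas 2.3.3, scanpy 1.11.5 and matplotlib 3.10.9, and was tested on simulated data.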

Additional observations from a re-analysis of the deposited data

Results flagged for a closer look

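In 11 of 180 compared genes of the lists the DTX to PBS difference had opposite signs in the Cd3-high and the Cd3-low members, with both counting intervals on 1 side of 0; over all 4052 genes this was met by 1.43%. The difference between the subsets was not tested, since each rests on 1 library per group. The log2 ratios in Cd3-high and Cd3-low members were -0.43 and 1.19 for *Gzma*, and 1 cell held 70.9% of the *Gzma* UMIs of the DTX Cd3-high members (-1.74 without the top cells). For *Prf1* they were -1.27 and 0.83, and no cell held over 21.4% of its UMIs in any of the 4 subsets. The lymphotoxin beta gene *Ltb* had -0.98 and 0.92, the NK receptor gene *Klrd1* (CD94) -0.52 and 0.62 and *Trbc1* -0.50 and 0.71. In the other direction stood *Rora* with 1.18 and -1.28, the mitotic gene *Ube2c* with 1.58 and -0.62, and the immediate early genes *Fos* with 1.00 and -1.03 and *Fosb* with 1.01 and -0.65. The collagen gene *Col1a2* had -2.97, from 16 UMIs in PBS and 0 in DTX, and 1.12, and *Dcn* -1.65 and 1.46. In both of these 1 DTX cell held 94.2% and 94.4% of the UMIs of Cd3-low members, and the ratios there were -2.14 and -1.79 without the top cells.

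Barcodes outside the cell filter also met the rest of the rule, 15 in PBS and 13 in DTX, all of them with over 6% mitochondrial UMIs. Their medians of 6392 and 6328 UMIs were below those of the members, and their mitochondrial share ran from 6.24% to 22.3% in PBS and from 6.01% to 39.2% in DTX. *Gzmc* reached 5 UMIs in 7 and 8 of them and *Gzma* in 6 and 3. With the limit raised to 10% the *Gzmc* log2 ratio of DTX to PBS was -0.79.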

How the results depend on the processing

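Shares of members and of Cd3-high members stayed within their counting interval in 25 of 34 values under alternatives, counts of 2-fold genes within 1.5 times in 19 of 30, and 649 of 828 log2 ratios of named genes stayed within theirs. The sign changed in 27 of the 828, 5 of them ratios of 2-fold or more. Under the limit of 2000 genes per cell it changed in 8 of the 17 ratios that could be compared. These were *Gzma* (-0.59), *Rgs1* (0.57), *Rgs2* (0.85), *Ctsw* (0.44), *Areg* (1.09), *Irf8* (-0.39), *Trdc* (2.49) and *Cd3g* (2.22). Of ratios of 2-fold or more, 310 of 315 kept their direction. With at most 2000 genes per cell the member shares were 0.753% and 0.0757%, the Cd3-high shares 21.1% and 50% (1 of 2 cells), and 13 genes were higher and 43 lower of 264 compared; 70 of 89 and 64 of 66 members lay above this limit. With cells thinned to 2000 UMIs before the rule the shares were 0.626% and 0.622%, the Cd3-high shares 28.6% and 11.9%, and 4 genes were higher and 13 lower of 501 compared. Over cells with a *Ptprc* UMI the shares were 3.62% and 1.27%. Adding 1 CPM gave 56 higher genes, leaving out RNA of other cell types 41 lower genes, and a minimum of 20 or 100 UMIs gave 79 or 11 higher and 150 or 48 lower genes. Without members rich in *Mcpt8* or *Cd74*, an alternative chosen after seeing the data, 54 genes were lower. *Dcn* went to -2.23 without Scrublet doublets, and without the top cell of each gene, also chosen after seeing the data, *Gpx3* went to -1.47, *Pi16* to -0.49, *Ccl7* to -0.78 and *Dcn* to -1.81. No paired analysis was possible because each group had 1 library, and no replicate could be left out. Cell numbers of 89 and 66 limit every share, and a gene held by few cells varies by more than its counting interval.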
